A study of Mus musculus with 24 samples.

Results

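Skeletal muscle genes were followed in RNA from mouse spinal nerve roots. The genes were the myosin heavy chains Myh1, Myh2, Myh3, Myh4, Myh7 and Myh8, the actins Acta1 and Actc1, the troponin Tnnt3 and the creatine kinase Ckm. They were chosen by name, and these 10 genes stood among 37074 gene names carried by the gene probes of the array. All 10 were on the array, with 21 probes, and the probe of highest mean signal over all arrays was used for each gene. The samples were efferent nerve (EN) fibres, from the ventral roots, and afferent nerve (AN) fibres, from the dorsal roots, taken at lumbar levels L4 to L6 from untreated C57BL/6 mice at postnatal day 0 (P0) and at 1, 3 and 5 weeks of age (1W, 3W, 5W). Each of the 8 groups had 3 one-colour arrays, 24 in all. According to the study's methods, fibres of several animals were collected into a tube for each group in independent experiments, so each array measured pooled tissue, and the dissection opened the vertebral canal and removed the arachnoid.

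Myosin heavy chains are the motor proteins of the thick filament, and muscle fibres exchange one form for another as they mature. Around birth, mouse limb and trunk muscle uses the embryonic chain Myh3 and the perinatal chain Myh8, which later give way to the adult fast chains Myh2, Myh1 and Myh4, while Myh7 is the slow chain that the heart also uses. Acta1 is the actin of adult skeletal muscle, Actc1 the actin of heart and of fetal skeletal muscle, Tnnt3 the fast troponin T that ties troponin to tropomyosin, and Ckm the muscle creatine kinase that restores ATP. Spinal roots hold axons, Schwann cells and connective tissue but no muscle fibres, and vertebrae, back muscle and ganglia lie close to them.

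The probes matter for the myosins, whose genes have closely similar sequences and, apart from Myh7, lie together on chromosome 11. Each probe has 60 bases, and their sequences and positions (build mm9) were read from the scanner files. The brightest Myh8 probe and the Myh1 probe share an unbroken run of 19 bases, the longest run shared by probes of different genes here, which is set in capitals. The brightest Myh8 probe lies on the plus strand at chr11:67121925-67121984, and a weaker Myh8 probe, 29.4 kb upstream of it and here called the upstream probe, lies at chr11:67092501-67092560. The longest run the upstream probe shares with a probe of another gene, one for Myh2, is 12 bases, also in capitals. The Myh3 and Myh4 probes, on which the stage pattern turns, are printed whole in lower case.
Myh8, brightest probe: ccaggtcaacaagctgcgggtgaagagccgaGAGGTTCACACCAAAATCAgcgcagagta
Myh1: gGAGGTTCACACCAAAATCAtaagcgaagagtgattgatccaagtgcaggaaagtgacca
Myh8, upstream probe: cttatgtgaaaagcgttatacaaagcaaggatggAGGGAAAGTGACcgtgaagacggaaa
Myh3: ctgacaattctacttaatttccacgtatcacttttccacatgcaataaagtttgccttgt
Myh4: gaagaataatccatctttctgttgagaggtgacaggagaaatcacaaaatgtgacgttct

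Values are the deposited log2 signals, normalized by the authors to 1 distribution on all arrays, so 1 unit is a doubling. Levels of different probes cannot be set against each other, and only changes of a probe between arrays are read below. A probe counted as measured on an array where the scanner software marked it well above background. Of the 10 genes, 8 were above background on all 24 arrays. Myh4 was above background on 22 arrays and Myh3 on 12. In bulk tissue, fewer cells of a type and less RNA per cell cannot be told apart, and which cells the muscle transcripts came from was not tested.

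On its brighter probe the embryonic chain Myh3 was highest at P0 and called lower at every later stage in both fibre types. A second Myh3 probe, above background on 2 arrays, stood at 3.97, 5.11 and 2.67 in P0 EN and was not tested. The brighter probe, used below, passed the filter on dim probes only through the P0 groups, where it is high. Such a filter favours a fall from P0. The Myh3 calls were also kept in the refit without that filter. In EN fibres Myh3 stood at 10.99, 14.05 and 12.01 on the 3 P0 arrays and at 6.32, 4.52 and 5.96 at 1W, and no EN array at 3W or 5W had it well above background. The AN arrays gave 11.75, 10.05 and 9.66 at P0 and 3.61, 5.81 and 4.89 at 1W. No later array of either fibre type reached the lowest P0 array of that type. The log2 change from P0 to 1W was -6.75 ± 1.01 in EN (SE; limma with Benjamini-Hochberg adjustment over all probes tested, adjusted p = 9.87e-05) and -5.71 ± 1.01 in AN (adjusted p = 0.000492). At 1W, EN replicate 2 and AN replicate 1 were not well above background, so the sizes of these changes rest partly on background signal. At 3W Myh3 was at least 177-fold lower than at P0 in EN, and at 5W at least 158-fold lower in EN and at least 63.6-fold lower in AN. These are lower bounds, in which the dim group was set on each array at the lowest signal still above background or at its own value where that was higher. At 3W in AN, Myh3 was above background on replicates 1 and 3, at 5.79 and 7.55, and stood at 2.83 on replicate 2, a log2 change from P0 of -5.10 ± 1.01 (adjusted p = 0.000373). With slide as a block this call was lost (-4.18, adjusted p = 0.0515, the highest over the settings tried, where the lowest was 4.93e-05).

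**Figure D1:**
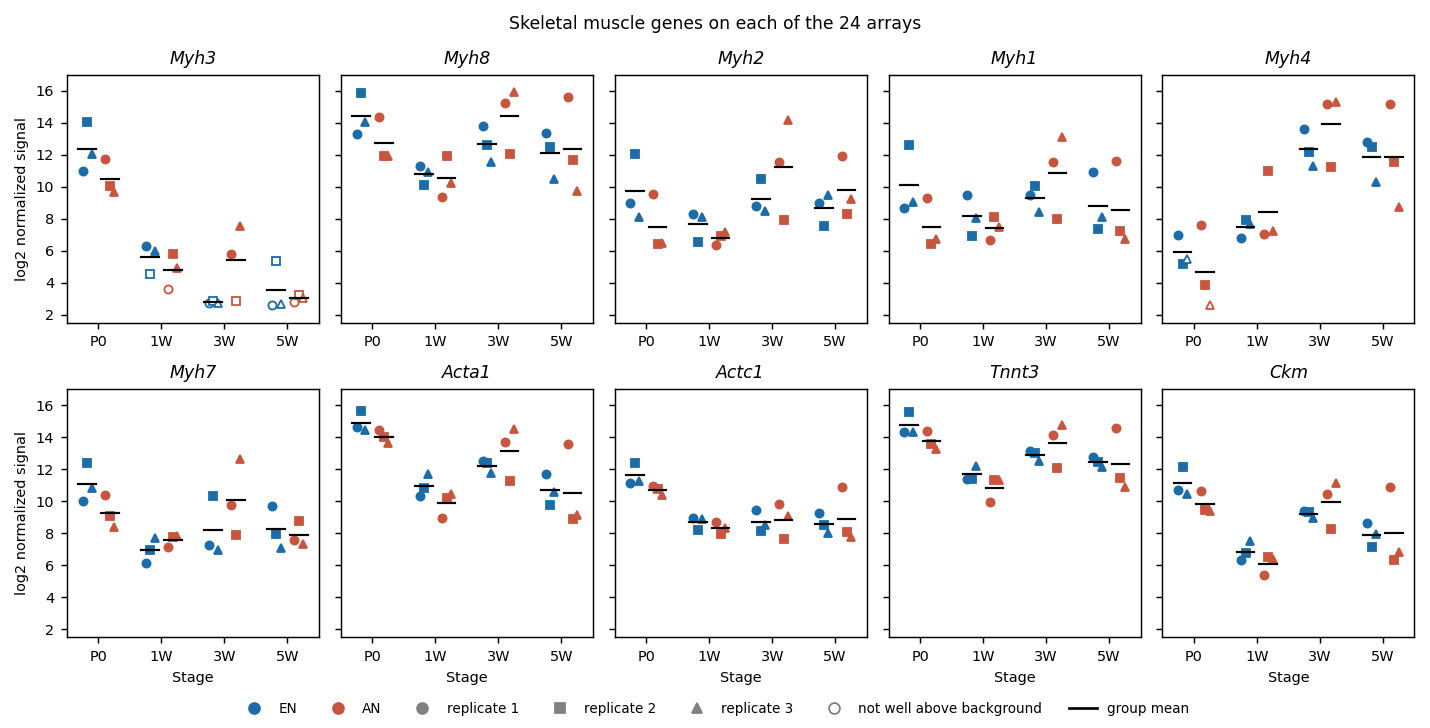
The log2 normalized signal of the 10 muscle genes (vertical axis) is plotted by stage for each array, with EN in blue, AN in red, a symbol for each replicate, open symbols for values not well above background and a bar for the group mean. Myh3 falls from P0, Myh4 rises by 3W, and in 3W AN and 5W AN single arrays stand well above or below the others in most panels.

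The perinatal chain Myh8 gave values that depended on the probe. On its brightest probe Myh8 stood at 13.30, 15.86 and 14.06 in P0 EN, at 11.26, 10.12 and 10.93 in 1W EN, at 13.78, 12.62 and 11.55 in 3W EN and at 13.38, 12.50 and 10.49 in 5W EN. It fell from P0 to 1W in EN by a log2 value of -3.64 ± 1.28 (limma, adjusted p = 0.0415), the groups not overlapping, and none of its other changes passed the test. Its call at 1W was lost when dim probes were not filtered out and when any of 6 single arrays was left out, with adjusted p between 0.0109 and 0.156 over the settings that kept this probe. On the upstream probe Myh8 stood at 6.36, 8.02 and 6.68 in P0 EN and at 6.55, 4.98 and 2.48 in P0 AN. It was then above background on only 1 of the 18 later arrays, 1W AN replicate 2 at 4.04. The upstream probe was taken up after its values were seen and passed the filter only through P0 EN, so its values are given as a description without p-values. It was also used as an alternative in the refits of the counts.

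At 3W and 5W the brightest Myh8 probe moved from array to array with the adult chains. Over those 12 arrays its Pearson correlation was 0.99 with Myh4 and 0.903 with the Myh1 probe that shares the 19 bases, a description over arrays of 4 groups that also share their muscle content. The upstream probe was at 2.48 to 2.67 on all 12. Whether the brightest probe binds transcripts of other myosin genes was not tested.

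**Figure D2:**
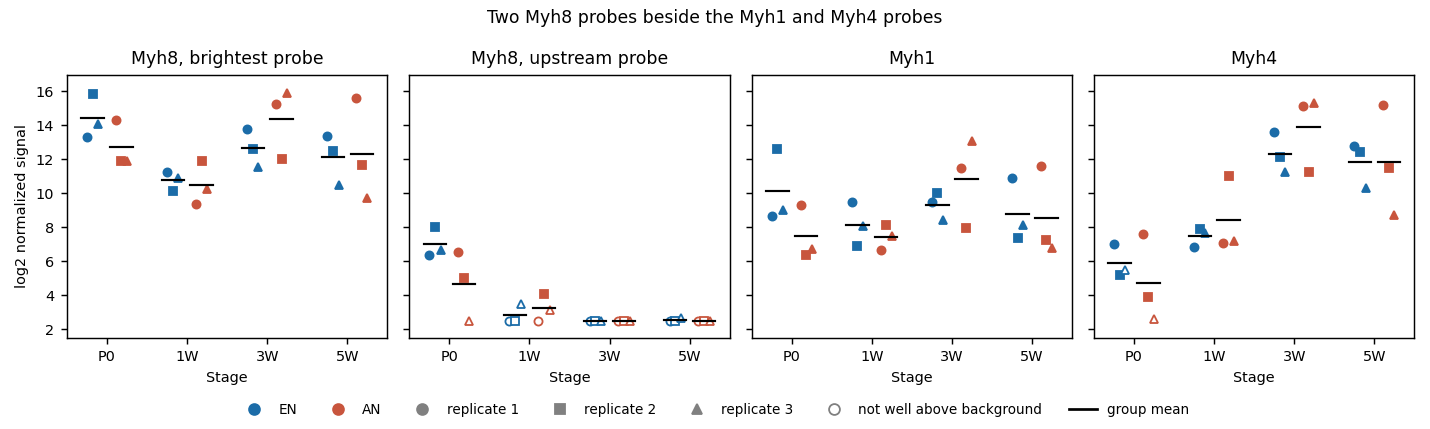
The log2 normalized signal by stage is shown for both Myh8 probes and for the Myh1 and Myh4 probes, in the same colours and symbols as the plot of all 10 genes. The brightest Myh8 probe is high again at 3W and 5W, where no array has the upstream probe well above background.

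On its brightest probe the adult fast chain Myh4 went the other way. In EN fibres Myh4 stood at 7.01, 5.17 and 5.50 at P0, at 6.82, 7.89 and 7.68 at 1W, at 13.59, 12.15 and 11.27 at 3W and at 12.77, 12.46 and 10.29 at 5W. The AN arrays stood at 7.60, 3.89 and 2.58 at P0, at 7.05, 10.99 and 7.21 at 1W, at 15.17, 11.23 and 15.30 at 3W and at 15.19, 11.52 and 8.75 at 5W. Every array at 3W and 5W lay above every P0 array of the same fibre type, while P0 and 1W overlapped. Myh4 rose by 6.44 ± 1.53 (log2) from P0 to 3W in EN (limma, adjusted p = 0.00166) and by 9.21 ± 1.53 in AN (adjusted p = 6.62e-05). By 5W the rise was 5.95 ± 1.53 in EN (adjusted p = 0.00296) and 7.13 ± 1.53 in AN (adjusted p = 0.000712). At P0, replicate 3 of each fibre type was not well above background. Myh4 therefore passed the filter on dim probes only through the later groups, where it is higher, and such a filter favours a rise from P0. The Myh4 calls were also kept in the refit without that filter. Over the settings that kept this probe, the EN rise from P0 to 3W ranged from 5.28 to 9.11. The AN rise over the same settings ranged from 6.96 to 11.87.

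Other Myh4 probes gave smaller changes. A probe designed on another database sequence of the gene, above background on 22 arrays, stood at 5.02, 5.13 and 5.17 in P0 EN and at 6.00, 6.12 and 6.18 in 3W EN. Its log2 difference from P0 at 3W was 0.99 ± 0.32 in EN (limma, adjusted p = 0.0143, a fold under 2 and so not called) and 0.49 ± 0.32 in AN (adjusted p = 0.216). The mean of both tested probes rose by 3.72 in EN and by 4.85 in AN, and both were called. A further Myh4 probe, above background on 9 arrays, stood at 3.14, 4.68 and 2.81 in P0 EN and at 6.53, 6.18 and 5.06 in 3W EN, and it was not tested. The reason the probes differ was not tested.

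The other adult fast chains, Myh2 and Myh1, were not called higher in EN, and in AN 1 of them was called at 3W. The difference between the chains was not tested. Myh2 stood at 8.97, 12.04 and 8.10 in P0 EN and at 8.82, 10.48 and 8.48 in 3W EN. In AN, Myh2 stood at 9.51, 6.41 and 6.47 at P0 and at 11.55, 7.92 and 14.18 at 3W. The EN groups overlapped, as did the AN groups. In AN, Myh2 rose by 3.75 ± 1.33 (log2; limma, adjusted p = 0.0243), a call that was lost in 6 settings, among them the fit without 3W AN replicate 3 (2.27, adjusted p = 0.155) and with slide as a block (3.41, adjusted p = 0.228), with adjusted p from 0.00195 over all settings. Myh1 in AN stood at 9.29, 6.39 and 6.72 at P0 and at 11.52, 7.95 and 13.09 at 3W, a log2 difference of 3.39 ± 1.42 that did not pass (adjusted p = 0.0531). With the replicate number as a block it passed (adjusted p = 0.0465). In EN neither Myh1 nor Myh2 passed the test at any stage, with log2 differences from P0 between -2.05 and -0.45.

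The slow chain Myh7 was highest at P0 in EN, at 10.02, 12.36 and 10.81, and stood at 6.17, 6.93 and 7.72 at 1W, with no overlap. It fell from P0 in EN by 4.13 ± 1.04 at 1W (limma, adjusted p = 0.00663), by 2.89 ± 1.04 at 3W (adjusted p = 0.0259) and by 2.83 ± 1.04 at 5W (adjusted p = 0.0287). The call at 3W was lost with slide as a block (adjusted p = 0.424) and at 5W with array quality weights (adjusted p = 0.14). In AN no change of Myh7 passed, and its highest AN value was 12.64, on 3W AN replicate 3.

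The actins, Tnnt3 and Ckm fell between P0 and 1W in both fibre types. Acta1 stood at 14.61, 15.62 and 14.45 in P0 EN and at 10.34, 10.84 and 11.69 in 1W EN. In AN, Acta1 stood at 14.46, 14.03 and 13.64 at P0 and at 8.96, 10.23 and 10.43 at 1W. In both fibre types all 1W arrays lay below all P0 arrays, and Acta1 fell by 3.94 ± 0.96 in EN (log2; limma, adjusted p = 0.00508) and by 4.17 ± 0.96 in AN (adjusted p = 0.00416). Ckm fell by 4.25 ± 0.91 in EN (adjusted p = 0.00201) and by 3.73 ± 0.91 in AN (adjusted p = 0.0062). Tnnt3 fell by 3.07 ± 0.76 in EN (adjusted p = 0.0057) and by 2.90 ± 0.76 in AN (adjusted p = 0.01). Actc1 fell by 2.92 ± 0.66 in EN (adjusted p = 0.00295) and by 2.38 ± 0.66 in AN (adjusted p = 0.0139).

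At 5W in EN all 4 genes were called lower than at P0, Acta1 by -4.21 ± 0.96 (log2; limma, adjusted p = 0.00112), Ckm by -3.19 ± 0.91 (adjusted p = 0.00619), Actc1 by -3.02 ± 0.66 (adjusted p = 0.000764) and Tnnt3 by -2.29 ± 0.76 (adjusted p = 0.0161). Actc1 stood in EN at 9.44, 8.14 and 8.53 at 3W and at 9.28, 8.49 and 8.03 at 5W against 11.17, 12.41 and 11.26 at P0. Acta1 group means were higher at 3W than at 1W, 12.21 against 10.96 in EN and 13.17 against 9.87 in AN, a step that was not tested. At 3W in EN the log2 difference from P0 was -2.68 ± 0.96 for Acta1 (limma, adjusted p = 0.0241), -2.92 ± 0.66 for Actc1 (adjusted p = 0.0011), -1.86 ± 0.76 for Tnnt3 (adjusted p = 0.0458) and -1.88 ± 0.91 for Ckm, which did not pass (adjusted p = 0.0866). With slide as a block Acta1, Actc1 and Tnnt3 lost this call (adjusted p = 0.174, 0.146 and 0.499), and over all settings the lowest adjusted p was 0.000922, 7.03e-05 and 0.00526. In AN at 3W Acta1, Tnnt3 and Ckm did not pass, with log2 differences from P0 of -0.87 ± 0.96, -0.10 ± 0.76 and 0.15 ± 0.91. Actc1 was called lower there, by -1.86 ± 0.66 (limma, adjusted p = 0.0241, from 0.00357 to 0.579 over all settings). At 5W in AN Acta1 (-3.50 ± 0.96, adjusted p = 0.00503) and Actc1 (-1.79 ± 0.66, adjusted p = 0.0299) were called lower, while Tnnt3 and Ckm did not pass. Over all settings these adjusted p ran from 2.91e-05 to 0.149 for Acta1 and from 0.000359 to 0.515 for Actc1.

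Counted together, 7 of the 10 genes were called in EN at 1W, all lower than at P0, where 11.9% of the 36409 probes tested were called (adjusted p below 0.05 and a fold above 2) and 5.67% were called lower. In EN 6 were called at 3W, 5 lower and 1 higher, where 30.5% of all probes were called (14.4% lower, 16.1% higher), and 7 at 5W, 6 lower and 1 higher, where 29.9% were (14.5% lower, 15.4% higher). In AN 5 were called at 1W, all lower, where 8.58% of all probes were called and 3.62% lower. In AN 4 were called at 3W, 2 in each direction, where 27.8% of all probes were called (12.8% lower, 15.0% higher), and 4 at 5W, 3 lower and 1 higher, where 27.8% were (12.7% lower, 15.2% higher). Counts of 4 of 10 in AN at 3W and 5W lie near these shares and are no result about the muscle genes as a group. Both Myh3 and Myh4 have values at background, and a refit on the probes above background on all 24 arrays leaves them out. In that refit 6, 4 and 5 of the other 8 genes were called in EN and 4, 3 and 2 in AN at 1W, 3W and 5W. The share of all probes called in that refit was not taken, so these counts are no result about the genes as a group. The median log2 change of the 10 genes was -3.36 in EN and -2.30 in AN at 1W, against 0.06 and 0.02 over all probes tested. It was -1.87 in EN and 0.48 in AN at 3W, and -2.56 in EN and -1.42 in AN at 5W.

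**Figure D3:**
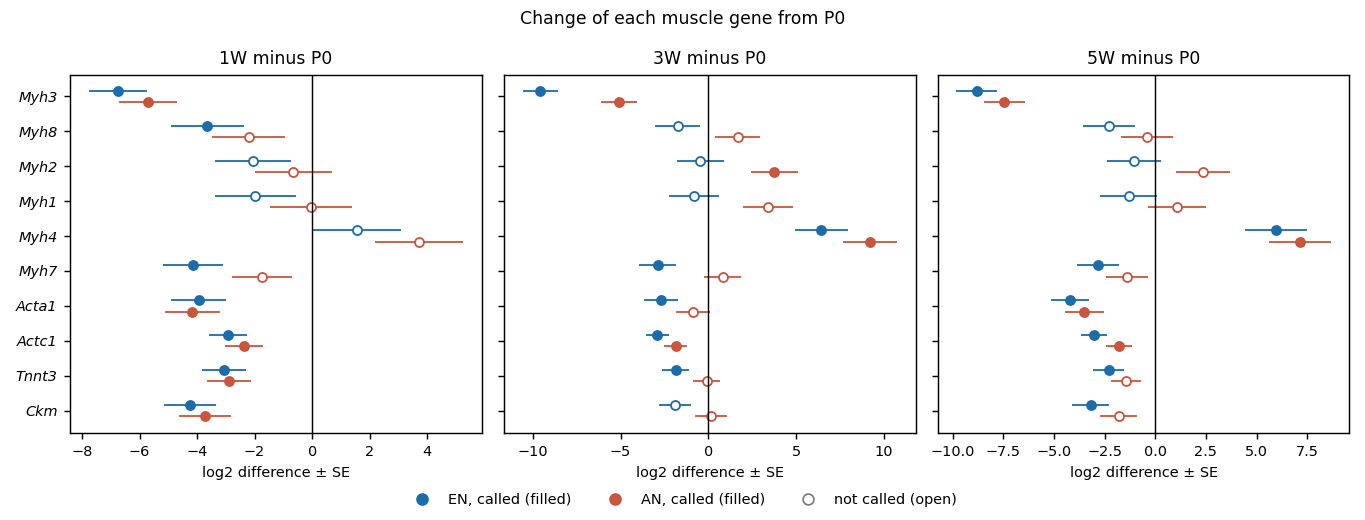
The log2 difference from P0 (horizontal axis, with its standard error) is shown for each of the 10 genes at 1W, 3W and 5W in EN (blue) and AN (red), and filled points passed the test. Myh3 lies farthest left at every stage and Myh4 farthest right at 3W and 5W.

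Some of these counts rested on single arrays or on the slide. The EN count at 3W was 3 without P0 EN replicate 2 and 3 without 3W EN replicate 3, and the AN count at 3W was 2 without P0 AN replicate 2. All 3W arrays were on a slide that held no P0 array, so no difference between 3W and P0 could be taken within a slide, and with slide as a block the counts at 3W were 2 in EN and 1 in AN. Within the slides that held both stages, 9 of 10 genes were lower at 1W than at P0 in EN on both slides. In AN all 10 were lower on one slide and 7 of 10 on the other. The first of these set 1W AN replicate 1, lowest of its group for 9 genes, against P0 AN replicate 1, highest of its group for all 10. On the only slide with P0 and 5W arrays, 9 of 10 genes were lower at 5W in EN and 6 of 10 in AN. Each of these differences within a slide set 1 later array against 1 or 2 P0 arrays. Genes of an array move together, so these counts are a description.

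An index of adult against developmental chains was also described within each array. It was the mean log2 of Myh1, Myh2 and Myh4 minus that of Myh3 and Myh8. Only changes of this index between arrays can be read, since it joins different probes. In EN it was -3.92, -5.01 and -5.49 at P0, -0.60, -0.21 and -0.50 at 1W, 2.37, 3.12 and 2.26 at 3W and 2.90, 0.20 and 2.71 at 5W. The AN values were -4.25, -5.42 and -5.52 at P0, 0.20, -0.20 and -0.27 at 1W, 2.23, 1.60 and 2.46 at 3W and 3.71, 1.58 and 1.86 at 5W. Every P0 array was lowest and every 1W array lay between P0 and 3W, in both fibre types, while 3W and 5W overlapped. No test was made of the index, which uses Myh3 values that were not well above background at 3W and 5W. In EN, Myh1 and Myh2 had lower means than at P0 at every later stage, so the index did not rise there through them. From P0 to 5W in EN the log2 changes were -1.31 (Myh1), -1.04 (Myh2), 5.95 (Myh4), -8.81 (Myh3) and -2.28 (Myh8).

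**Figure D4:**
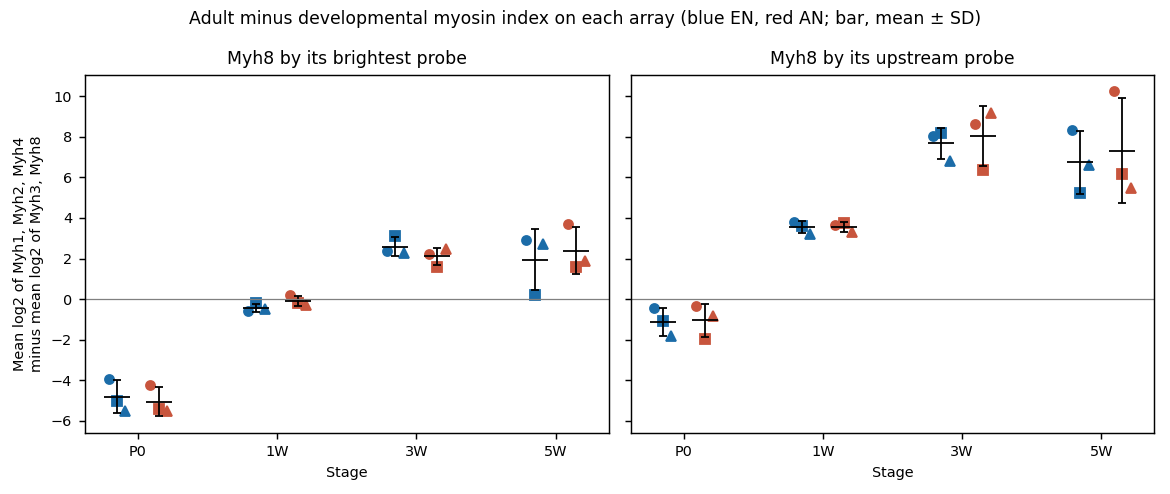
The index of adult over developmental myosin (mean log2 of Myh1, Myh2 and Myh4 minus mean log2 of Myh3 and Myh8) is plotted for each array by stage, with the group mean and SD, using the brightest Myh8 probe (left) or the upstream probe (right). All P0 arrays lie lowest in both panels. The upstream probe was taken up after its values were seen and passed the filter only through P0 EN. The right panel is therefore a description and no separate support for the left.

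The index varied less between arrays of 3W AN than the muscle signal did. In 3W AN the mean log2 of the 10 genes was 11.72, 8.91 and 12.82 on the 3 replicates, a 15.0-fold range, while the index of the same arrays was 2.23, 1.60 and 2.46, in the same order. In 5W AN the mean was 11.47, 8.55 and 7.94, an 11.6-fold range, and the index was 3.71, 1.58 and 1.86. In the other 6 groups the highest and lowest arrays differed by 1.83-fold to 4.29-fold. Among these, 5W EN had an index that varied more than the muscle signal. The index there was 2.90, 0.20 and 2.71, where the mean was 10.07, 9.09 and 8.69.

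Between the fibre types none of the 10 genes passed the test at any stage. At P0 0 of 10 were called, where 0.327% of all probes were, at 1W 0 of 10 (2.79%), at 3W 0 of 10 (3.11%) and at 5W 0 of 10 (3.31%). In limma, unadjusted p was below 0.05 for 0 of 10 genes at P0, 1W and 5W and for 1 of 10 at 3W, against 7.34%, 13.7%, 20.7% and 19.4% of all probes. The gene was Myh3, at least 1.43-fold higher in AN, with no 3W EN array above background (adjusted p = 0.147). Without 3W AN replicate 2 its adjusted p was 0.0206, with no EN array above background there either. At P0 all 10 genes had lower means in AN, by log2 values of -2.64 to -0.85, and at 3W all 10 had higher means in AN. The change from P0 to 3W was also compared between fibre types, and 0 of 10 genes were called (0.525% of all probes), with a smallest adjusted p of 0.229. Unadjusted p was below 0.05 for 3 of them, Myh3, Myh2 and Myh7 (9.18% of all probes). Within slides the direction at P0 was not shared. On the slide with 1 P0 array of each fibre type 7 of 10 genes were higher in AN. On the slide with 2 of each all 10 were lower. These p-values measure the spread between arrays of pooled tissue.

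In several groups the same array was highest for most of the 10 genes. In P0 EN, replicate 2 was highest for 9 of 10 genes. In P0 AN, replicate 1 was highest for all 10. In 3W AN, replicate 2 was lowest for all 10 and replicate 3 highest for 9, and replicate 1 was highest for 8 in 5W AN and for 8 in 5W EN. In the other groups the highest array was shared less: replicates 1, 2 and 3 were highest for 5, 1 and 4 genes in 1W EN, for 1, 5 and 4 in 1W AN and for 6, 4 and 0 in 3W EN. The median SD of the 10 genes within a group ran from 0.64 in 1W EN to 2.25 in 5W AN, against 0.12 to 0.32 for the median of all probes tested.

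After the group means were subtracted, each gene was set against the mean of the other 9 over the 24 arrays. Tnnt3 followed the others most closely (Pearson r = 0.943), then Myh8 (0.924), Myh1 (0.919) and Ckm (0.892), and Myh3 (0.573) and Myh7 (0.582) least. Among 23854 other genes, those most like the mean of the 10 were Ttn (0.965), the giant spring protein titin, then Trim54 (0.963), a ring finger protein of the sarcomere, Eno3 (0.959), the muscle enolase, and Tnni2 (0.958), the fast troponin I. They were followed by Mybpc1 (0.955), Ckmt2 (0.953), Pdlim3 (0.95), Trdn (0.946), Jsrp1 (0.942) and Actn3 (0.94). These correlations describe arrays that share their tissue piece and slide, and no test was made of them.

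The wider contractile programme was taken from lists of 49 fast fibre, slow fibre, Z-disc, excitation-contraction and muscle energy genes, of which 46 were tested. In EN 28 were called lower and 1 higher than at P0 at 1W, 23 lower and 5 higher at 3W, and 29 lower and 4 higher at 5W, against 11.9%, 30.5% and 29.9% of all probes called in either direction. In AN 16 were called lower and 2 higher at 1W, 5 lower and 8 higher at 3W, and 14 lower and 4 higher at 5W, against 8.58%, 27.8% and 27.8% of all probes. The AN count at 3W, 13 of 46, lies near the share of all probes and is no result about these genes. Between fibre types 1 of the 46 was called at 1W, where 2.79% of all probes were, a count near that share. It was Cacna1s, a calcium channel subunit, lower in AN. None was called at P0 (0.327% of all probes), 3W (3.11%) or 5W (3.31%).

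Of 10 fast fibre genes tested, 7 were called lower in EN at 1W, where 5.67% of all probes were called lower. Their median log2 change was -2.86, against 0.06 over all probes. Slow fibre genes were called lower there for 7 of 9, with a median of -3.26. The changes named next were all called. Tnnc2, the fast troponin C, fell by 2.71 on the log2 scale, Tnni2 by 3.01, and Mylpf, the fast regulatory light chain, by 3.69. Casq1, the calcium store protein of the sarcoplasmic reticulum, instead rose by 2.89 in EN and by 4.11 in AN from P0 to 3W. Of the slow fibre genes, Csrp3, a Z-disc LIM protein, fell by 5.33 in EN at 1W and was at least 17.6-fold lower in AN, and Tnnc1, the slow and cardiac troponin C, rose by 1.42 in EN and by 1.95 in AN at 3W. Cox7a1, a respiratory chain subunit of heart and muscle, rose by 1.25 in EN at 1W and by 2.47 at 3W. Casq1 and Cox7a1 followed the mean of the 10 genes only loosely from array to array, with r of 0.36 and 0.482, against 0.938 for Tnnc2.

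Of the genes that mark young muscle, Myog, the transcription factor of myocyte differentiation, fell by 3.71 in EN at 1W and was at least 4.22-fold lower in AN. Tnnt2, the troponin T of heart and fetal muscle, fell by 3.98 in EN and by 3.23 in AN. Chrng, the fetal subunit of the muscle acetylcholine receptor, rose at 1W, by 2.22 in EN and by 2.37 in AN. Chrng was also called lower in AN than in EN at all 4 stages, by a log2 difference of -2.04 ± 0.41 on the P0 arrays (limma, adjusted p = 0.0243). The later differences, in order of age, were -1.89, -1.71 and -1.55 (adjusted p = 0.0123, 0.0189 and 0.0286), with no overlap of the groups at any stage. Of 7 myogenic and satellite cell genes only Chodl was tested, and it was lower than at P0 at every later stage in both fibre types. Mstn and Myf5 were at background on every array, and Pax7 and Myod1 were each above it on 3 arrays.

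**Figure D5:**
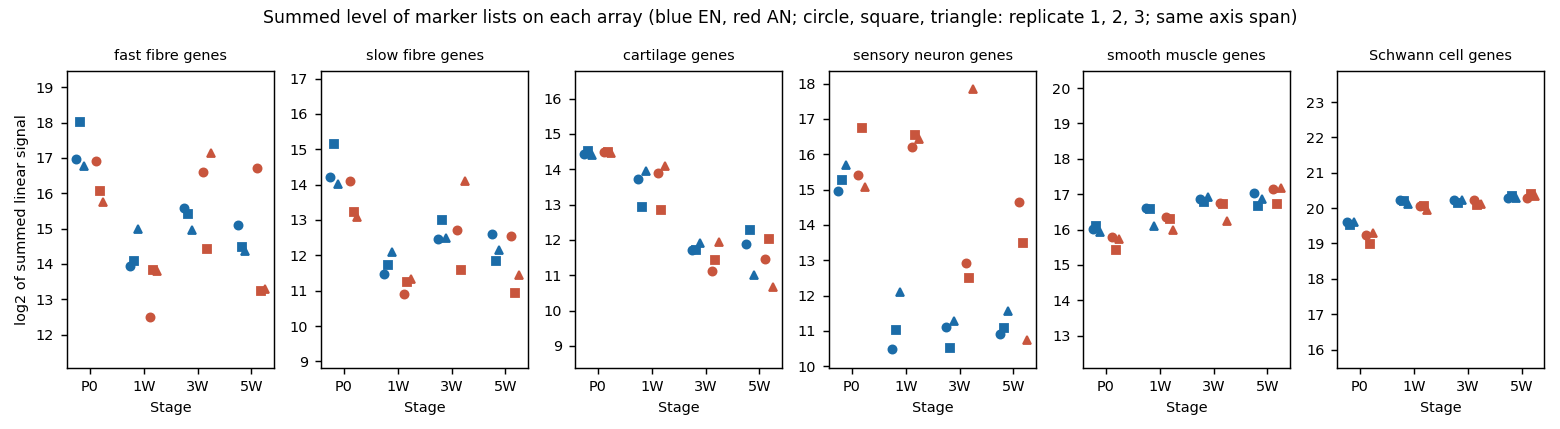
The log2 of the summed linear signal of 6 gene lists (vertical axes, each of the same span) is plotted by stage for each array, EN in blue and AN in red, with circles, squares and triangles for replicates 1, 2 and 3. Fast and slow fibre genes differ between arrays of a group far more than Schwann cell genes do, and the sensory neuron list is high in P0 EN and highest on 3W AN replicate 3.

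Genes of other tissues also moved. Cartilage genes were high at P0, with a summed log2 level of 14.40 to 14.51 in EN and 14.47 to 14.50 in AN, and at 5W the sum lay at 11.01 to 12.27 in EN and at 10.67 to 12.02 in AN. Of 6 cartilage genes tested, 3 were called lower at 1W in each fibre type, where 5.67% of all probes were called lower in EN and 3.62% in AN, and Col10a1, the collagen of growth plate cartilage, fell by 3.33 in EN and by 3.39 in AN. On the 3 P0 AN arrays, where the fast fibre sum was 16.91, 16.06 and 15.74, the cartilage sum stayed within 14.47 to 14.50. The part of the surrounding tissue in the muscle signal was not tested.

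Sensory neuron genes were compared with the fibre labels. All 6 were called higher in AN than in EN at 1W (2.79% of all probes called), 2 at 3W (3.11%) and 1 at 5W (3.31%), and 0 of 6 at P0 (0.327%; limma, 0 at unadjusted p below 0.05), where the summed level was 14.95 to 15.70 in EN and 15.06 to 16.75 in AN. By this sum the library labelled 5W AN replicate 3 went against its label, at 10.74, below the 10.92, 11.07 and 11.57 of the 5W EN arrays. By Chrng it did not, since the 5W AN and EN arrays did not overlap for that gene. Whether this library carries the right label was not tested. Without it 3 of the 10 muscle genes were called in AN at 5W instead of 4, as Actc1 lost its call (adjusted p = 0.166; over all settings 0.000359 to 0.515). On 3W AN replicate 3 the sum was 17.85, against 12.93 and 12.50 on replicates 1 and 2. On that array the heart genes Myh6 and Myl7, from a list of 6, stood at 9.83 and 8.71, against 5.06 and 5.94 on replicate 1. The sum of that list, which follows its brightest genes, stood at 11.01 there, against 8.72 to 9.75 on all other arrays. The summed tendon list stood at 12.32 there, against 9.87 and 9.85 on replicates 1 and 2, and the part of these tissues in the muscle values was not tested. Without 3W AN replicate 3 the rise of Myh4 from P0 in AN kept its call. On 5W AN replicate 1, where muscle genes were also high, the heart list stood at 9.55.

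Schwann cell genes, the main glia of the roots, summed to 19.53 to 19.61 in P0 EN and to 20.28 to 20.35 in 5W EN, and to 18.98 to 19.29 in P0 AN and 20.29 to 20.40 in 5W AN. Smooth muscle genes summed to 15.93 to 16.09 in P0 EN and to 16.67 to 17.04 in 5W EN, and at 1W, where the skeletal genes fell, they stood at 16.09 to 16.60 in EN. A sum follows its brightest probes, and the single genes were mixed. Of 7 tested in EN, 2 were called higher and 1 lower at 1W (11.9% of all probes called), with a median log2 change of -0.24. At 5W in EN 2 were called higher and 2 lower (29.9%), with a median of 0.37. Red blood cell genes summed to 19.14 to 20.17 on all 24 arrays. Bone genes summed to 11.18, 12.28 and 10.81 on the P0 AN replicates, and the part of bone in the muscle signal was not tested.

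The promoters of the genes that fell and rose were searched for the CArG box, the element that serum response factor binds in many muscle genes. Its pattern reads the same on both strands. In the 250 bases before the start of the gene (RefSeq, build GRCm38.p6), 1.47% of 32851 promoters held it, and 3 of the 9 muscle genes with an entry did, Acta1, Actc1 and Myh4. The last 120 bases before the start are printed for these 3, with the box in capitals, at chr8:123894776-123894895 (minus strand), chr2:114052876-114052995 (minus strand) and chr11:67237692-67237811 (plus strand).
Acta1: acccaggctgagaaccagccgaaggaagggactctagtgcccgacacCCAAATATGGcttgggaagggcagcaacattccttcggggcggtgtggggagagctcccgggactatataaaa
Actc1: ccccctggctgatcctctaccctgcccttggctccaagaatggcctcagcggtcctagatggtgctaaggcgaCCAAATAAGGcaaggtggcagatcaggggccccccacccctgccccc
Myh4: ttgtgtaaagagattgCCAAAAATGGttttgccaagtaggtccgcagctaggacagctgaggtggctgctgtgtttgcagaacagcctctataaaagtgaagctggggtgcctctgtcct
The box starts 73 bases before the start of Acta1, 47 before that of Actc1 and 104 before that of Myh4. A match is a description of the letters. These genes did not all move one way from P0 to 3W in EN, where Acta1 and Actc1 had lower means, calls lost with slide as a block, and Myh4 a higher one.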

How the data were processed

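RNA of 24 samples was hybridised to one-colour (Cy3) Agilent mouse arrays. Spots were read with Agilent Feature Extraction 10.7.1.1 (per the labels), and the authors quantile normalized the signals and deposited log2 values, which were used here as they are. The scanner files' deposited intensity columns and background flags served for filters and alternatives, and each array correlated best with its own deposited column (0.9955 to 0.9999). Quantile normalization sets all arrays to the same distribution, so a change of the whole distribution cannot be seen.

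Groups came from the sample titles. A probe was kept if any group had it well above background on each of its 3 arrays (36409 probes), and 8 group means were fitted with limma 3.58.1 in R 4.3.3 with Benjamini-Hochberg adjustment; a call needed adjusted p below 0.05 and a fold above 2. The fit was also run on simulated data with independent noise, unlike arrays that deviate together, and its outcome is not given here. Same-numbered EN and AN arrays deviated together (correlation 0.107 to 0.646 in 12 of 12 pairs), and they shared a slide. Named genes were the 10 muscle genes, leading or called genes of each list, and the 10 genes most like them. Members and lists were chosen with earlier results of these data known. The number of arrays limits the precision.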

Additional observations from a re-analysis of the deposited data

How the results depend on the processing

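Each count was refitted under 12 alternatives (1 of them, the upstream Myh8 probe, chosen after seeing the data) and with each of the 24 arrays left out. The 33 single-gene changes called kept their direction throughout; 19 were called in every refit and 14 lost their call in at least 1. With slide as a block the counts against P0 at 3W were 2 in EN and 1 in AN, and 9 single-gene calls were lost. The AN count at 5W was 2 with the arrays compared alone and 2 with probes above background on all 24 arrays, where Myh3 and Myh4 were not tested. The count between AN and EN at 3W was 1 with unadjusted p. Leaving out 1 array gave counts of 6 to 7 (1W), 3 to 7 (3W) and 5 to 7 (5W) in EN, 4 to 6, 2 to 5 and 3 to 6 in AN, and 0 to 1 between AN and EN at 3W, with 0 at P0, 1W and 5W. With the replicate block the counts were 7, 5 and 7 in EN, 5, 5 and 4 in AN, and 0 between fibre types at every stage; Tnnt3 at 3W in EN lost its call (adjusted p = 0.0504; over all settings 0.00526 to 0.499) and Myh1 at 3W in AN gained one. The index rose from P0 to 5W by 6.75 in EN and 7.44 in AN, by 4.98 and 4.95 after normexp background correction, and by 6.27 to 7.61 and 6.78 to 7.85 with 1 array left out. The causes were not tested. Signal near background limits Myh3 from 1W on and Myh4 at P0.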

Other observations

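Of 6 genes of the muscle side of the neuromuscular junction, 3 were called lower than at P0 and 0 higher at 3W in EN. There 14.4% of all probes were called lower and 16.1% higher. In AN at 3W 2 were called lower and 1 higher (12.8% and 15.0% of all probes). Chrnd and Chrna1, subunits of the acetylcholine receptor, were called at least 2.80-fold and at least 3.26-fold lower at 3W than at P0 in EN, while Musk, the kinase that gathers the receptors, rose by 1.07 (log2) in AN at 3W. Musk was also higher in AN than in EN at 3W, by 1.12 ± 0.22 (log2; limma, adjusted p = 0.00584). Chrnd was called lower than at P0 at every later stage in both fibre types. Car3, a carbonic anhydrase of slow fibres and fat, fell in AN at all 3 later stages, by 2.87, 3.07 and 3.01 (log2; limma).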
